A study of Mus musculus with 800 samples.

Results

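Cadherins are calcium-dependent adhesion proteins of the cell surface, and the genes described here are the cadherins and the non-clustered protocadherins of embryonic mouse retina, read across single cells sorted by a Tomato label. The members are all gene symbols of the deposited count table that consist of Cdh or Pcdh and a number, without the Pcdha, Pcdhb and Pcdhg cluster genes and without the X-linked gene Pcdh11x. This rule gave 34 genes, 23 named Cdh and 11 named Pcdh, of 49399 symbols that occur once in the table. All cells came from E15.5 retinas of C57BL/6 mice that carry Sert-Cre, in which Cre recombinase is driven from the serotonin transporter gene Slc6a4, so Tomato+ and Tomato- cells share this allele. The 2 groups are 400 Tomato+ and 400 Tomato- cells from pooled retinas dissociated with papain and sorted by flow cytometry; the labels name neither the Tomato allele nor an animal for any cell. Each group is therefore 1 sample, no test was made between them, and every difference below is a description of these cells.

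Classical cadherins bind cadherins on neighbouring cells through their outer domains and reach the actin cytoskeleton through beta- and alpha-catenin. Type I cadherins (Cdh1, Cdh2, Cdh3, Cdh4 and Cdh15) and type II cadherins differ in their outermost adhesive domain. Delta protocadherins (Pcdh1, Pcdh7, Pcdh8, Pcdh9, Pcdh10, Pcdh17, Pcdh18 and Pcdh19) have a cytoplasmic tail that does not bind beta-catenin. In the retina, cadherins are known for holding the neuroepithelium together, for the growth and bundling of ganglion cell axons, and for the choice of partner cells and target nuclei.

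Cells with at most 20% of their counts in mitochondrially encoded genes were kept, which left out 73 Tomato+ and 38 Tomato- cells; the kept cells had median totals of 271789 counts in Tomato+ and 243410 counts in Tomato-. A cell was called Pou4f-positive with at least 5 counts of Pou4f1 or Pou4f2, transcription factors of retinal ganglion cells (RGCs). All but 60 of the kept Tomato+ cells (81.65% positive) and all but 210 of the kept Tomato- cells (41.99% positive) were Pou4f-positive. Levels are in CPM, counts summed over a group's cells and scaled by its total so that groups share a common total, and 95% intervals on them are exact Poisson intervals that cover counting error only. A summed level does not separate more cells with a transcript from more transcript per cell, so shares of cells with at least 5 counts stand beside it. Spread within a group is given over the numbers in the cells' titles, 1 to 10 in Tomato+ and 11 to 20 in Tomato-, each carried by 40 cells before filtering. The labels do not say what these numbers are. Cells of title numbers 8 and 10 differed from the others, at a median of 148632 and 127257 counts per cell and a median mitochondrial share of 10.3% and 10.2%, and values without them are given where they matter. As a check of the label, Slc6a4 stood at 103.8 CPM in Tomato+ cells, against 0.546 CPM in Tomato- cells. Markers of RGCs, 10 genes, summed to 20537 CPM in Tomato+ cells, against 8937 CPM in Tomato- cells.

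The summed level of all 34 members was almost the same in the 2 groups, at 847 CPM in Tomato+ cells, against 847 CPM in Tomato- cells. Among Pou4f-positive cells the sums were 847 CPM in Tomato+ cells, against 825 CPM in Tomato- cells. A Pou4f-positive cell had at least 5 counts of a median of 4 members in Tomato+ and 3 members in Tomato-, with at most 9 in either. Of the 34 members, 28 had at least 1 count in a kept cell. Cdh5, Cdh16, Cdh17, Cdh19, Cdh26 and Pcdh12 had 0 counts in every kept cell; the limit that 0 counts allow was set at 3 counts of the group's total, which is 0.0348 CPM for Tomato+ and 0.0321 CPM for Tomato-. Cdh5 is the cadherin of endothelial junctions. A comparison took members that reached 5 counts or more in no fewer than 5% of the cells of either group, which 16 members did over all kept cells, 15 among Pou4f-positive cells and 15 in the Eomes split described further on, 17 in all. A member can pass by the group where it is higher alone, as Cdh6, Cdh13, Pcdh10 and Pcdh18 did where they were past 2-fold. Such calls depend in part on the filter, and the same rule chose all genes tested.

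Cdh2 (N-cadherin), the main type I cadherin of neural tissue, was the most widely detected member. It stood at 225.6 CPM in Pou4f-positive Tomato+ cells (interval 222.3 to 229.1) and 260 CPM in Pou4f-positive Tomato- cells, with 90.6% and 85.5% of cells at 5 counts or more. Over title numbers it ran from 152.6 to 320 CPM with a median of 218.7 CPM in Tomato+ and from 168.7 to 387.8 CPM with a median of 248.999 CPM in Tomato-, so the groups overlapped. Per kilobase of exon, the scale on which genes can be set side by side, Cdh2 and Pcdh9 led in Pou4f-positive Tomato+ cells, at 27.98 and 24.1 CPM per kb. Cdh11 followed at 9.57 CPM per kb, Cdh4 at 8.67, Pcdh19 at 7.54, Cdh13 at 3.83 and Pcdh17 at 3.31 CPM per kb. In Pou4f-positive Tomato- cells the same order of the first 2 held, with 32.2 CPM per kb for Cdh2 and 15.6 CPM per kb for Pcdh9, while Cdh4 stood above Cdh11 at 13.4 against 10.3 CPM per kb. The third type I member by level, Cdh15, known from muscle, stood at 1.41 CPM in Pou4f-positive Tomato+ cells, against 2.62 CPM in Pou4f-positive Tomato- cells.

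**Figure D1:**
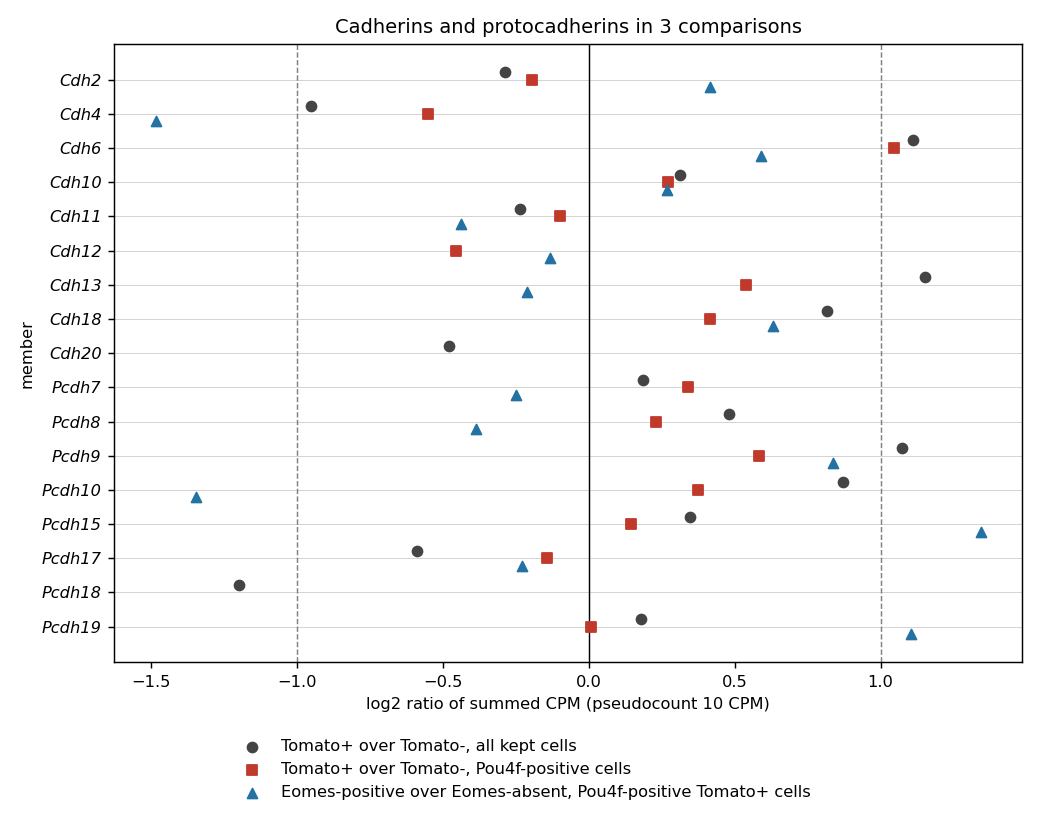
Log2 ratio of summed CPM for the 17 members that passed the detection filter in at least 1 of 3 comparisons, one symbol per comparison, with dashed lines at 2-fold. Pcdh19 lies near 0 between Tomato+ and Tomato- Pou4f-positive cells and at 1.11 in the Eomes split, while Cdh4 lies left of 0 in all 3 comparisons.

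Over all kept cells, 3 members were at least 2-fold higher in Tomato+ (Cdh6, Cdh13 and Pcdh9) and 1 was at least 2-fold lower (Pcdh18), on the scale log2(CPM + 10). Among all 10396 genes tested in this comparison, 3% were higher and 6.72% were lower by this rule. The median log2 ratio was 0.25 over the 16 members and -0.06 over all genes tested, and 10 of the 16 members lay above 0. The members' counts and medians are descriptions, set beside those of all genes.

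Pcdh9, a delta protocadherin, stood at 166.5 CPM in Tomato+ cells and 73.9 CPM in Tomato- cells, a log2 ratio of 1.07. Across title numbers the lowest, median and highest values were 115.4, 184.9 and 193.7 CPM in Tomato+ and 5.95, 70.01 and 143.3 CPM in Tomato-. All Tomato+ title numbers lay above the median of Tomato-, but the ranges overlapped. Of Tomato+ cells 51.4% had at least 5 counts, against 18.8% of Tomato- cells. When every cell was thinned to 94783 counts, which left out 33 shallower Tomato+ and 36 shallower Tomato- cells, 61.9% of Tomato+ and 28.8% of Tomato- cells kept at least 1 count, against 70.03% and 37.02% before thinning.

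Cdh13 (T-cadherin), which is anchored to the membrane by a lipid and has no cytoplasmic tail, stood at 43.1 CPM in Tomato+ cells, against 13.9 CPM in Tomato- cells, a log2 ratio of 1.15. Its title numbers ran from 12.4 to 74.6 CPM with a median of 35.9 CPM in Tomato+, and from 0 to 43.8 CPM with a median of 11.6 CPM in Tomato-. The ranges overlapped. Cdh6, a type II cadherin known in mouse retina from several ganglion cell types, stood at 12.7 CPM in Tomato+ cells, against 0.492 CPM in Tomato- cells, a log2 ratio of 1.11. It had at least 5 counts in 6.12% of Tomato+ cells and 0.552% of Tomato- cells. Pcdh18, a delta protocadherin, was almost absent from Tomato+ cells, with 4 counts over all kept cells and no cell at 5 counts, against 13.1 CPM and 6.35% of cells in Tomato-. Title numbers of Pcdh18 reached at most 0.286 CPM in Tomato+, while in Tomato- the lowest was 0, the median 8.95 and the highest 31.3 CPM. The ranges touched only at the low end. None of the 16 members had title numbers without overlap between the groups, which 4.89% of all genes tested had.

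The make-up of the sorted cells moved with this comparison. The 9 progenitor markers summed to 111.5 CPM in Tomato+ cells, against 4322 CPM in Tomato- cells, over ranges of 12.1 to 529 and 2948 to 5482 CPM by title number, and all 9 were past 2-fold lower in Tomato+. The 10 RGC markers ran from 19073 to 22874 CPM in Tomato+ and from 6852 to 12413 CPM in Tomato-, with 7 past 2-fold higher. Erythroid genes summed to 1695 CPM in Tomato+ cells, with title numbers up to 9145 CPM, against 4.01 CPM in Tomato- cells. Microglia or macrophage genes summed to 4.03 CPM in Tomato+ cells, against 131.5 CPM in Tomato- cells, with Tomato- title numbers up to 825 CPM. How far these shifts carry the members' ratios was not tested; the comparison within Pou4f-positive cells below holds fewer cells of other kinds. Of the 4 calls, Cdh6 fell short of 2-fold without title number 2 (log2 ratio 0.90), and Pcdh9 without title number 17 (0.98) or 19 (0.95). Without title numbers 8 and 10 all 4 stood, and Cdh4 joined the lower members at a log2 ratio of -1.24, against -0.95 with them.

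Promoters of 4 of the members past 2-fold by label or by Eomes are shown as examples, because Eomes is a T-box factor whose family binds a known core. Pcdh9 and Pcdh18 were also past 2-fold and have promoter entries that are not printed. Cdh4 and Cdh13 were past 2-fold but had no promoter entry. RefSeq promoters (build GRCm38.p6, 250 bases before to 50 bases after the annotated start) matched 22 of the 34 members, with 25 entries. Both strands of each 300-base window were searched for the T-box core AGGTGT and the E-box CACCTG, which can overlap, since the E-box read on its opposite strand shares AGGTG with the core; capitals mark a match and all other bases are in lower case.
Pcdh19 (chrX:133688944-133689243, minus strand): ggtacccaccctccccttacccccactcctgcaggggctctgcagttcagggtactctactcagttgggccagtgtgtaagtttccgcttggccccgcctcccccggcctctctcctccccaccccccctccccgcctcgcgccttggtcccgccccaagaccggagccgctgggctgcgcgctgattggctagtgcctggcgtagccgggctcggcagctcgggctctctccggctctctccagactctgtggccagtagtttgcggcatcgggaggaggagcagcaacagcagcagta
Pcdh15 (chr10:73821617-73821916, plus strand): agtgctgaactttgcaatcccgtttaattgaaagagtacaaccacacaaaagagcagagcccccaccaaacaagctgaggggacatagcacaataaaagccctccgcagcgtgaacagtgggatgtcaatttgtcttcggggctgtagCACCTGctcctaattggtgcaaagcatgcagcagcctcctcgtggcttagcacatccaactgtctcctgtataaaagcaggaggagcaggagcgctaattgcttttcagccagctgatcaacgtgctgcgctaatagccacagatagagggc
Pcdh10 (chr3:45378148-45378447, plus strand): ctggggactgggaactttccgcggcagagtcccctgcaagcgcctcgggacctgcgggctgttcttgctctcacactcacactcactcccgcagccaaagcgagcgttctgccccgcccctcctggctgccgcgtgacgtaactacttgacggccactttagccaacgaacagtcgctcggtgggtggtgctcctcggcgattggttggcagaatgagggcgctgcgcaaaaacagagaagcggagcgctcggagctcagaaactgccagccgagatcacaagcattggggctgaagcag
Cdh6 (chr15:13173626-13173925, minus strand): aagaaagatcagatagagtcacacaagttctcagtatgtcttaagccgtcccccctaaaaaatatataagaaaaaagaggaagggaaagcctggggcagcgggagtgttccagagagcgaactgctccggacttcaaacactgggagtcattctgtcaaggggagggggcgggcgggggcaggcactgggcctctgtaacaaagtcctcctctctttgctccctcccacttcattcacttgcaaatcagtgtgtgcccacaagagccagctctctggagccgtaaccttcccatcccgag
The T-box core was in 1 of the 25 member entries (Cdh7, chr1:109983473-109983772, plus strand), and in 13.7% of all 32851 promoters. The E-box was in 5 of the 25 entries (3 of Cdh7, and those of Pcdh7 and Pcdh15), 20%, against 20.2% of all promoters. Of the 4 promoters printed, only that of Pcdh15 holds either motif, one E-box in capitals. Member promoters were richer in G and C, with a median of 60.3% and 14 CpG, against 52.7% and 7 CpG over all promoters. A match is a description of letters, and a missing match says only that these letters are not in this window.

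Within Pou4f-positive cells the question was whether Tomato+ and Tomato- cells of the same gate differ in these genes. On the scale log2(CPM + 10), only Cdh6 was at least 2-fold higher in Tomato+ and no member was 2-fold lower, 1 and 0 of 15 members tested. Cdh12 was past 2-fold lower in plain CPM only, at 4.65 CPM in Tomato+, against 10.1 CPM in Tomato-. Cdh8 did not pass the filter, with 3.95% of Tomato- cells at 5 counts or more. It stood at 0.666 CPM in Tomato+, against 14.03 CPM in Tomato-, a log2 ratio of -1.17. In Tomato- the top 5 cells held 98.3% of its counts. Over all 10543 genes tested, 1.05% were higher and 2.65% lower. The median log2 ratio was 0.23 over the members and -0.04 over all genes tested.

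Cdh6 (chr15:13028701-13173675, minus strand in GRCm38) stood at 11.03 CPM in Pou4f-positive Tomato+ cells (828 counts, interval 10.3 to 11.8) and at 0.19 CPM in Pou4f-positive Tomato- cells (9 counts, interval 0.087 to 0.361), a log2 ratio of 1.05 with the pseudocount. The title-number values in Tomato+ were 0.234 CPM at the lowest, 8.45 at the median and 22.02 at the highest; those in Tomato- were 0, 0.0648 and 0.870 CPM. Of the 10 Tomato+ title numbers, 9 lay above every Tomato- title number, and number 8 did not. The transcript came from few cells: 18 Pou4f-positive Tomato+ cells had at least 5 counts (6.74%, exact Clopper-Pearson interval 4.04% to 10.5%) against 1 Tomato- cell (0.658%, interval 0.0167% to 3.61%), and the top 5 cells held 69.7% of the Tomato+ counts. Among Eomes-absent cells of the same gate Cdh6 stood at 7.26 CPM in Tomato+, against 0.22 CPM in Tomato-, a log2 ratio of 0.76. On the scale log2(CPM + 10), which shrinks the ratios of low members such as Cdh6, none of the 14 members tested there reached 2-fold. That narrower comparison was of 120 Tomato+ cells with all but 33 of the Pou4f-positive Tomato- cells. In it 1.94% of all genes were higher and 4% lower.

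Cdh4 (R-cadherin), a type I cadherin known for guiding retinal cells and axons, was the most shifted of the abundant members in the other direction, without reaching 2-fold. It stood at 62.9 CPM in Pou4f-positive Tomato+ cells and 96.9 CPM in Pou4f-positive Tomato- cells, a log2 ratio of -0.55. Its title numbers had a lowest, median and highest value of 18.9, 58.7 and 210.6 CPM in Tomato+ and 25.2, 94.1 and 168.6 CPM in Tomato-. The highest value of all belonged to Tomato+ title number 8; without numbers 8 and 10 the log2 ratio was -0.84. In Eomes-absent cells the 2 groups had close summed levels, at 95.6 CPM in Tomato+, against 95.98 CPM in Tomato-. The Tomato+ sum includes title number 8, at 375.5 CPM in 8 cells, where the next title number had 148.6 CPM.

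Pcdh9 stood at 163.2 CPM in Pou4f-positive Tomato+ cells and 105.6 CPM in Pou4f-positive Tomato- cells, a log2 ratio of 0.58. The spread was unequal: Tomato+ title numbers ran only from 108.6 to 190.6 CPM with a median of 173.1, while Tomato- title numbers ran from 5.63 to 263.6 CPM with a median of 100.6. Of Tomato+ cells 53.6% had at least 5 counts, against 29.6% of Tomato- cells. Cdh13 stood at 43.01 CPM in Tomato+ cells, against 26.5 CPM in Tomato- cells, a log2 ratio of 0.54, with title numbers from 12.5 to 81.4 CPM (median 32.7) and from 0 to 65.2 CPM (median 20.9), which overlapped widely.

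Pcdh19, Cdh11 and Pcdh17 were close between the groups. Pcdh19, a delta protocadherin, stood at 78.9 CPM in Pou4f-positive Tomato+ cells, against 78.4 CPM in Pou4f-positive Tomato- cells, a log2 ratio of 0.01. Without Tomato- title number 17 its log2 ratio was 0.22. Cdh11, a type II cadherin, stood at 85.3 CPM in Tomato+ cells, against 91.97 CPM in Tomato- cells (log2 ratio -0.10), with title numbers from 55.8 to 164.8 CPM in Tomato+ and from 20.3 to 210 CPM in Tomato-. Pcdh17 stood at 43.02 and 48.6 CPM in Tomato+ and Tomato- cells (log2 ratio -0.14). Members of lower level were further apart. Cdh18, a type II cadherin, stood at 13.8 CPM in Tomato+ cells, against 7.80 CPM in Tomato- cells, and Pcdh20 at 2.89 CPM in Tomato+ cells, against 0.972 CPM in Tomato- cells; the top 5 cells held 59.3% of the Cdh18 counts of Tomato+. No member had title numbers without overlap here, which 0.275% of all genes tested had.

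**Figure D2:**
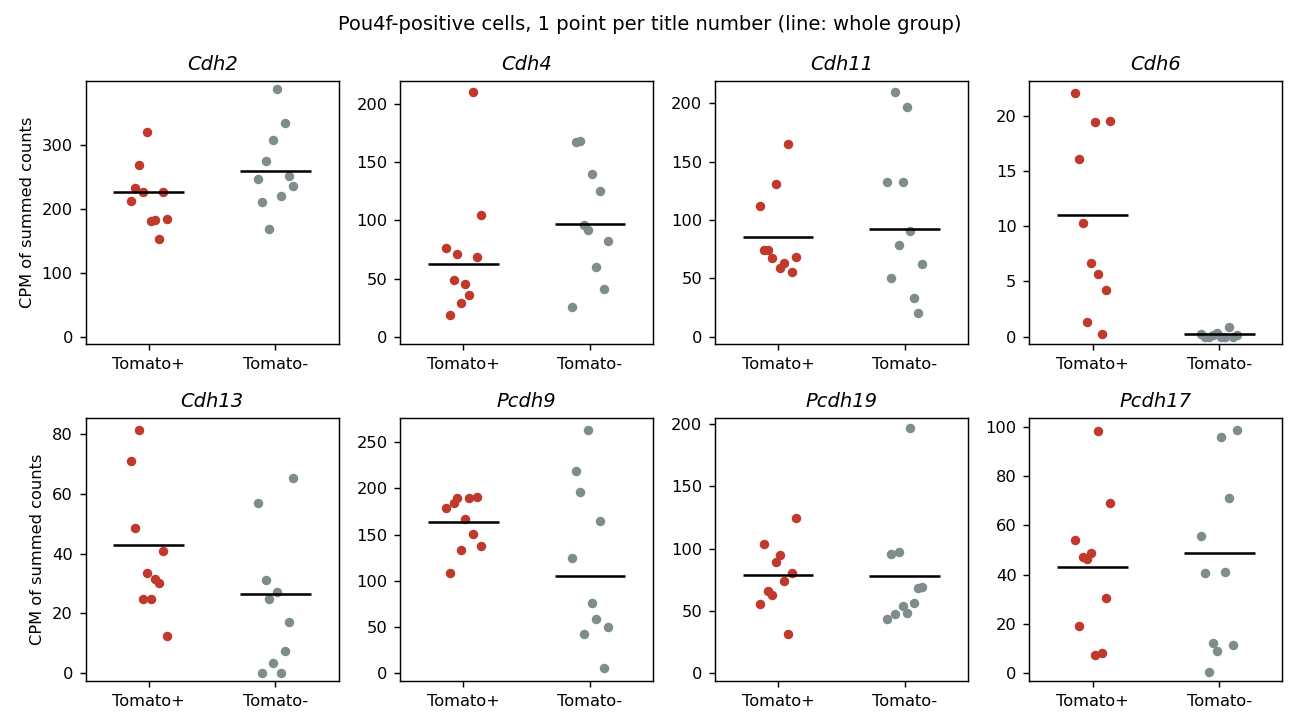
CPM of 8 members in Pou4f-positive cells, one point per title number (10 Tomato+ left, 10 Tomato- right) and a line at the level of the whole group. Cdh6 lies between 0.234 and 22.02 CPM in Tomato+ and at or below 0.870 CPM in Tomato-, with only title number 8 of Tomato+ inside the Tomato- range.

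Marker lists still moved within the gate. The 9 progenitor markers summed to 56.2 CPM in Pou4f-positive Tomato+ cells, against 1327 CPM in Pou4f-positive Tomato- cells, and 8 of the 9 were past 2-fold lower in Tomato+; none was at 0 in either group. The 6 neurogenic precursor markers summed to 113.1 and 477.4 CPM, and the 10 RGC markers to 20665 and 15240 CPM, in Tomato+ and Tomato-. When cells with at least 5 counts of Tfap2a, Tfap2b, Otx2, Crx, Fgf15 or Sfrp2 were left out, 16 Tomato+ and 85 Tomato- cells fell away and the progenitor sum was 25.1 CPM in Tomato+ and 180.9 CPM in Tomato-. The ratios of the members named so far then stood as follows. Cdh6 stood at 11.3 CPM in Tomato+, against 0.372 CPM in Tomato-, Cdh4 at 65.8 and 93.7 CPM, Pcdh9 at 161.8 and 97.3 CPM, and Pcdh19 at 78.5 and 82.95 CPM. Of the 15 members tested, 5 moved by more than 0.2 on the log2 scale. Without those cells the log2 ratio of Cdh12 was -0.07, against -0.46 with them, that of Pcdh15 was -0.22, against 0.14, that of Cdh10 was -0.06, against 0.27, that of Pcdh10 was 0.07, against 0.37, and that of Pcdh7 was 0.08, against 0.34. Pcdh18, which did not pass the filter here, had a level of 0.139 CPM in Tomato- without those cells, against 3.61 CPM with them. The part of the other cells in the ratios of Pou4f-positive cells was not tested further. Erythroid genes summed to 1264 CPM in Pou4f-positive Tomato+ cells, against 5.47 CPM in Pou4f-positive Tomato- cells, and the log2 ratio of Cdh6 was 1.04 when cells with 100 or more Hbb-y counts were left out. Cdh6 fell short of 2-fold without title number 1, 2, 6 or 10, with a log2 ratio of 0.93 without number 1 and above that without the others.

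Eomes (Tbr2) is a T-box factor of a subset of RGCs, and it divided the Tomato+ cells. Of Pou4f-positive Tomato+ cells 37.8% had at least 5 Eomes counts (interval 31.99% to 43.9%), against 12 Pou4f-positive Tomato- cells (7.89%, interval 4.15% to 13.4%). The split compared these Eomes-positive Tomato+ cells with the 120 Eomes-absent (0 counts) Pou4f-positive Tomato+ cells, and left out 46 cells with 1 to 4 counts. Both sides come from the same 10 title numbers, and directions within them are given as a description of 1 pool, not as repeats. Title numbers 8 and 10 held only 3 Eomes-positive cells each, and number 2 held 6. On the scale log2(CPM + 10), Pcdh15 and Pcdh19 were at least 2-fold higher in Eomes-positive cells, and Cdh4 and Pcdh10 at least 2-fold lower. These are 2 and 2 of 15 members tested. Over all 10442 genes tested, 1.41% were higher and 0.9% lower. The median log2 ratio was -0.13 over the members and -0.00287 over all genes, so members lay on both sides. All members together summed to 939 CPM in Eomes-positive and 806 CPM in Eomes-absent cells.

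Pcdh19 (chrX:133582860-133688987, minus strand in GRCm38) stood at 116.9 CPM in Eomes-positive cells (interval 112.9 to 120.9) and 48.9 CPM in Eomes-absent cells (interval 46.6 to 51.4), 2.39-fold higher and a log2 ratio of 1.11 with the pseudocount. Title-number values were 27.4 CPM at the lowest, 108.6 at the median and 222.1 at the highest in Eomes-positive cells, and 11.7, 40.4 and 175.6 CPM in Eomes-absent cells. Eomes-positive cells were the higher side in 9 of 10 title numbers. Number 10 was the exception, with 27.4 CPM in 3 Eomes-positive cells against 175.6 CPM in 10 Eomes-absent cells. At least 5 counts were found in 59 Eomes-positive cells (58.4%, interval 48.2% to 68.1%) and 38 of 120 Eomes-absent cells (31.7%, interval 23.5% to 40.8%). With thinning to equal depth, which left out 3 Eomes-positive and 6 Eomes-absent cells, 62.2% of Eomes-positive and 43.9% of Eomes-absent cells kept at least 1 count, against 71.3% and 55% before. The Pcdh19 level of all Pou4f-positive Tomato+ cells covers both these sides and the 46 cells with 1 to 4 Eomes counts. Eomes-absent Tomato- cells stood at 77.4 CPM, against 48.9 CPM in Eomes-absent Tomato+ cells, a log2 ratio of -0.57 for Tomato+ over Tomato-. The Tomato+ side includes title number 10 at 175.6 CPM. In all Pou4f-positive Tomato- cells, title number 17 stood at 196.9 CPM (next 97.8 CPM). What lies behind the equal Pcdh19 levels of Pou4f-positive Tomato+ and Tomato- cells was not tested.

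Cdh4 (chr2:179442431-179899373, plus strand in GRCm38) was the opposite case, at 27.7 CPM in Eomes-positive cells (interval 25.8 to 29.7) and 95.6 CPM in Eomes-absent cells (interval 92.3 to 99.01), 3.45-fold lower and a log2 ratio of -1.48. The lowest, median and highest title-number values were 3.26, 28.3 and 96.4 CPM in Eomes-positive cells and 16.3, 85.5 and 375.5 CPM in Eomes-absent cells. Eomes-positive cells were the lower side in 8 of 10 title numbers. At least 5 counts were found in 18 Eomes-positive cells (17.8%) and 45 of 120 Eomes-absent cells (37.5%). After thinning, 24.5% of Eomes-positive and 44.7% of Eomes-absent cells kept at least 1 count, against 28.7% and 50.8% before. Pou4f1, one of the gate genes, was lower on the same side, at 81.96 CPM in Eomes-positive and 174.2 CPM in Eomes-absent cells, and Slc6a4 stood at 72.8 and 148.004 CPM.

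Pcdh10 (chr3:45378398-45435623, plus strand in GRCm38), a delta protocadherin, stood at 4.25 CPM in Eomes-positive cells (interval 3.53 to 5.08) and 26.2 CPM in Eomes-absent cells (interval 24.5 to 28.02), 6.17-fold lower and a log2 ratio of -1.35. Title-number values were 0, 1.07 and 12.8 CPM at the lowest, median and highest in Eomes-positive cells, against 0.478, 12.4 and 115.97 CPM in Eomes-absent cells. Eomes-positive cells were the lower side in 9 of 10 title numbers, with number 6 the exception. At least 5 counts were found in 5 Eomes-positive cells (4.95%) and 18 of 120 Eomes-absent cells (15%), and the top 5 cells held 73.5% of the Eomes-absent counts. The log2 ratio was -0.72 without title number 9.

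Pcdh15, a protocadherin of the tip links of sensory hair cells, had the highest log2 ratio of the 15 members tested, resting on few cells. It stood at 35.2 CPM in Eomes-positive cells and 7.78 CPM in Eomes-absent cells, a log2 ratio of 1.34. Title-number values were 0, 11.6 and 158.97 CPM at the lowest, median and highest in Eomes-positive cells and 0, 6.09 and 37.2 CPM in Eomes-absent cells, and Eomes-positive cells were the higher side in only 5 of 10 title numbers. The shares of cells with at least 5 counts were 8.91% in Eomes-positive and 5.83% in Eomes-absent cells, 5 cells held 93.6% of the Eomes-positive counts, and without title number 2 the log2 ratio was 0.72. The RefSeq start whose promoter is printed above lies inside the GENCODE gene (chr10:73099342-74649737), so other starts of this gene are not covered by that window.

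Pcdh9 came next on the upper side without reaching 2-fold, at 230.5 CPM in Eomes-positive and 124.6 CPM in Eomes-absent cells, a log2 ratio of 0.84. Its lowest, median and highest title-number values were 85.4, 229.2 and 341.6 CPM in Eomes-positive cells and 49.8, 134.6 and 287.3 CPM in Eomes-absent cells, with Eomes-positive cells the higher side in 6 of 10. Cdh2 stood at 262.3 CPM in Eomes-positive and 194.3 CPM in Eomes-absent cells (log2 ratio 0.41), higher in 8 of 10 title numbers. Cdh11 stood at 71.7 and 100.8 CPM, Cdh13 at 42.5 and 50.8 CPM and Pcdh17 at 41.1 and 49.8 CPM in Eomes-positive and Eomes-absent cells, each with title numbers on both sides. No member kept one direction in all 10 title numbers, which 0.441% of all genes tested did.

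**Figure D3:**
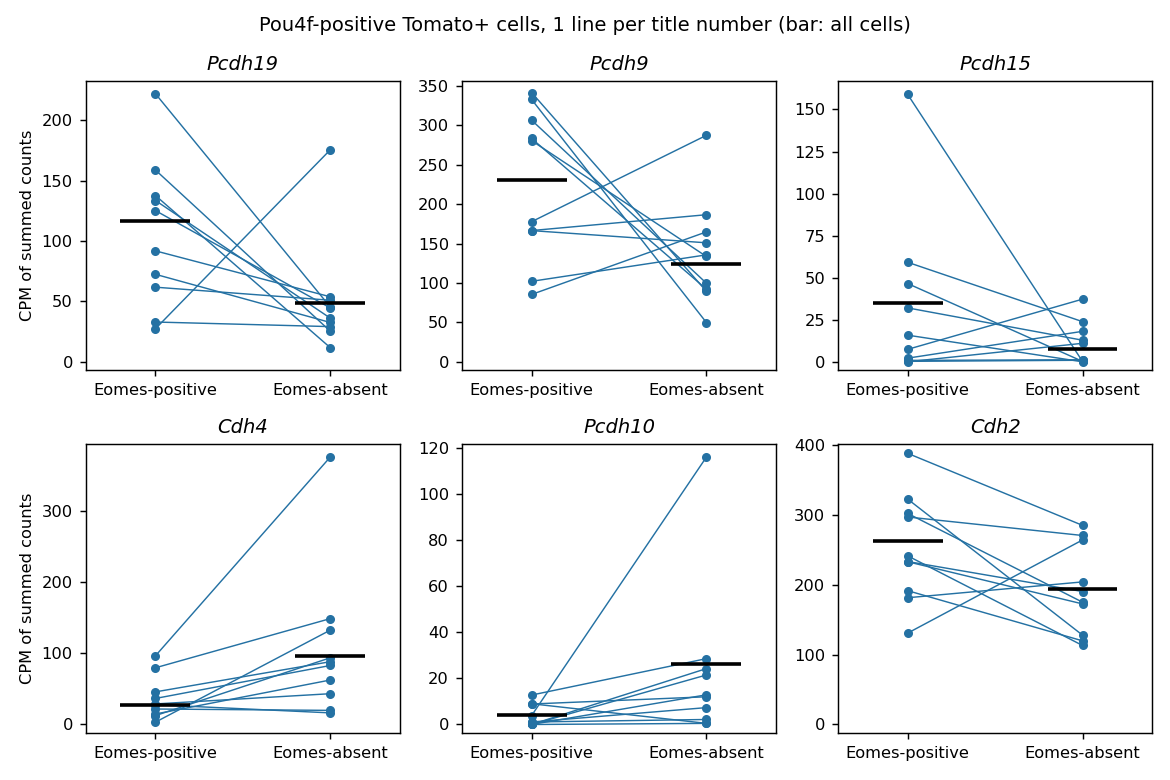
CPM of 6 members in Eomes-positive (left) and Eomes-absent (right) Pou4f-positive Tomato+ cells, one line per title number and a black bar at the level of all cells of a side. Most lines slope down for Pcdh19 and up for Cdh4 and Pcdh10, while Pcdh15 rests on title number 2 at 158.97 CPM.

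Marker sums were compared in the Eomes split too. Progenitor markers summed to 23.4 CPM in Eomes-positive and 29.7 CPM in Eomes-absent cells and RGC markers to 20280 and 21332 CPM, with no gene of either list past 2-fold. Photoreceptor precursor markers summed to 129.2 CPM in Eomes-positive and 80.04 CPM in Eomes-absent cells, with 1 past 2-fold, and amacrine or horizontal markers to 4.42 and 9.55 CPM. Erythroid genes differed in sum, at 2792 CPM in Eomes-positive and 435 CPM in Eomes-absent cells, with 4 past 2-fold; when cells with 100 or more Hbb-y counts were left out, the log2 ratios were 1.11 for Pcdh19, 1.26 for Pcdh15, -1.48 for Cdh4 and -1.34 for Pcdh10. In all kept Tomato+ cells without the Pou4f gate, the Eomes-positive cells (36.39% of them) stood at 119.1 CPM of Pcdh19 and 24.9 CPM of Cdh4, against 48.2 and 90.6 CPM in the Eomes-absent cells (44.34% of them). The 12 Eomes-positive Tomato- cells, which took no part in the Tomato+ split, had 38.3 CPM of Cdh4 and 0.222 CPM of Pcdh10, against 95.98 and 14.4 CPM in Eomes-absent Tomato- cells. In the same cells Pcdh9 stood at 368.2 CPM in Eomes-positive and 75.1 CPM in Eomes-absent cells, and Pcdh19 at 74.98 and 77.4 CPM, so Pcdh19 was level between these sides. With only 12 cells, 5 of which held 93.2% of the Pcdh9 counts, these values are coarse.

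In single Pou4f-positive Tomato+ cells the members showed weak rank correlations, given as descriptions of sparse cells that share a library type and differ in depth. The largest in size were 0.32 between Cdh4 and Pou4f1, 0.25 between Pcdh19 and Eomes, -0.24 between Cdh4 and Eomes and 0.23 between Pcdh9 and Eomes (Spearman's rank correlation of CPM). Pcdh15 and Slc6a4 had -0.20. Between members the largest in size was 0.21, for Cdh2 and Pcdh7. Of 80 cells with at least 5 counts of Cdh4, 63 also had at least 5 counts of Pou4f1, which 60.67% of all Pou4f-positive Tomato+ cells had.

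Other cells of the Tomato- sort gave the level of the members outside the RGC gate. Cells were assigned in order by at least 5 counts of Pou4f1 or Pou4f2 (41.99% of kept cells), Tfap2a or Tfap2b of amacrine and horizontal cells (26 cells), Otx2 or Crx of photoreceptor and bipolar precursors (61 cells), Neurog2 or Atoh7 of neurogenic precursors (24 cells), Fgf15 or Sfrp2 of progenitors (84 cells), or none of these (15 cells). Cdh2 was high in every named gate, from 223.95 CPM in the Otx2 or Crx gate to 350.4 CPM in the Fgf15 or Sfrp2 gate. Cdh4 stood at 163.3 CPM in the Fgf15 or Sfrp2 gate and 161.8 CPM in the Otx2 or Crx gate, above the 96.9 CPM of Pou4f-positive Tomato- cells. The shares of cells with at least 5 counts of Cdh4 were 50% and 27.9%, against 38.8%, so the Otx2 or Crx gate was lower by share. There the top 5 cells held 64.3% of the Cdh4 counts. Cdh11 stayed between 90.4 and 134.7 CPM over the 5 named gates.

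Among named Tomato- gates Cdh13 was nearly limited to Pou4f-positive cells, at 26.5 CPM, against at most 0.321 CPM in the other 4. No cell of those 4 gates had 5 counts of Cdh13. The 15 Tomato- cells of no named gate had 13.7 CPM, with 1 cell at 5 counts or more. Pou4f-positive Tomato+ cells stood at 43.01 CPM. Pcdh10 showed a like pattern over the named Tomato- gates, at 12.2 CPM in Pou4f-positive cells, against at most 1.08 CPM in the others. It stood at 18.8 CPM in Pou4f-positive Tomato+ cells. Among Tomato- gates Pcdh9 was also highest in Pou4f-positive cells, at 105.6 CPM, but stood between 22.3 and 75.7 CPM in the others. In Pou4f-positive Tomato+ cells it stood at 163.2 CPM. The 60 kept Tomato+ cells outside the Pou4f gate took no part in these gates. All kept and Pou4f-positive Tomato+ cells stood at 24.5 and 24.1 CPM per kb for Pcdh9. Those levels were 3.83 and 3.83 CPM per kb for Cdh13, and 1.27 and 1.18 for Pcdh10. These patterns are therefore described for Tomato- gates only. Pcdh17 was highest in the Otx2 or Crx gate, at 250.4 CPM with 37.7% of its 61 cells at 5 counts or more, against 43.02 CPM in Pou4f-positive Tomato+ cells. The top 5 cells held 56.02% of the Pcdh17 counts of that gate. Cdh8, a type II cadherin, also stood highest there, at 63.3 CPM, but all of those counts came from 5 cells. Pcdh18, almost absent from Tomato+, stood at 50.2 CPM in the Tfap2a or Tfap2b gate, 31.01 CPM in the Otx2 or Crx gate and 21.1 CPM in the Neurog2 or Atoh7 gate, with 3, 7 and 3 cells at 5 counts or more. In the Fgf15 or Sfrp2 gate it stood at 9.14 CPM, with 5 such cells.

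**Figure D4:**
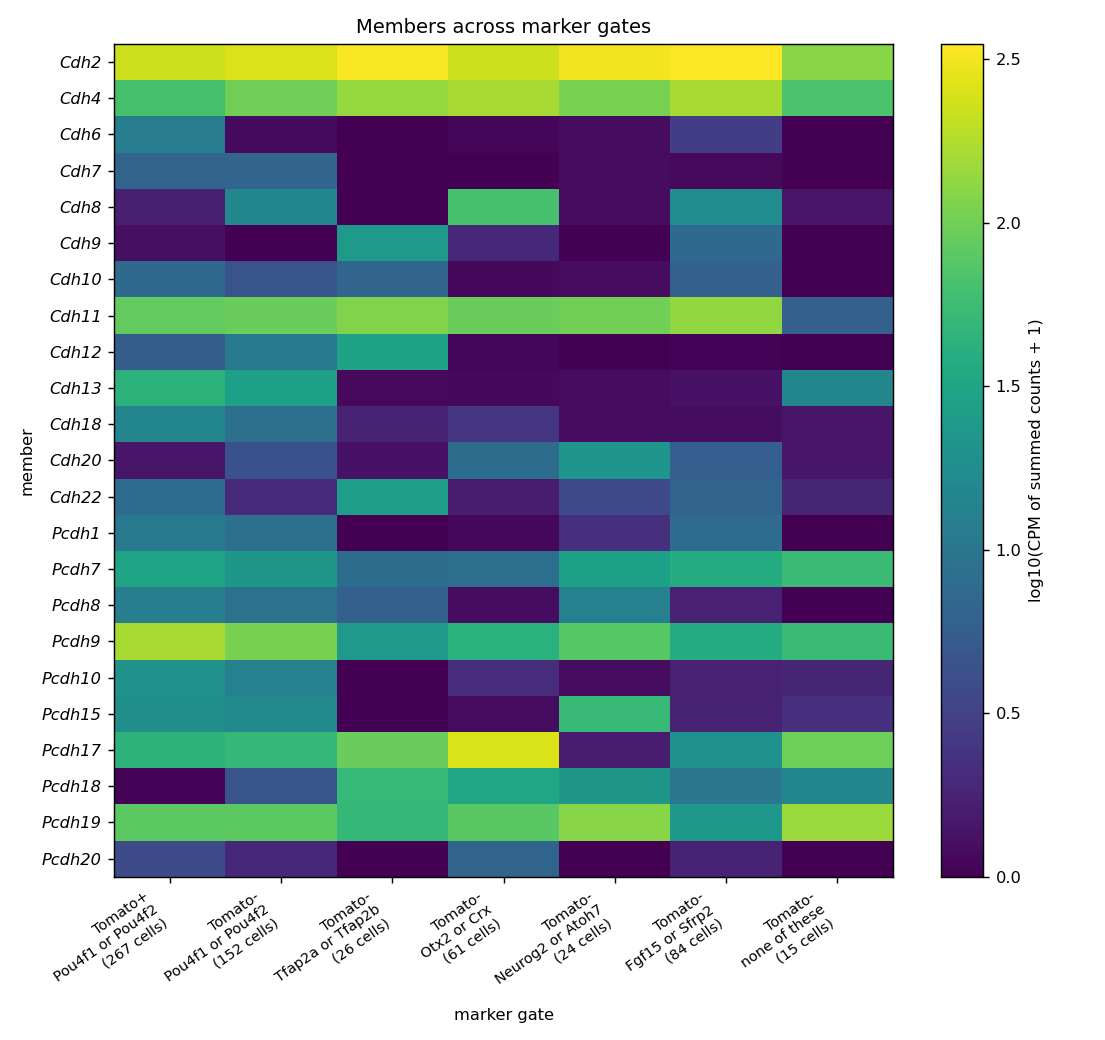
Summed level, as log10(CPM + 1), of the 23 members that reach at least 5 CPM in a marker gate, with Pou4f-positive Tomato+ cells on the left and the 6 Tomato- gates to their right. Cdh13 and Pcdh10 are bright in the Pou4f columns and dark in the other named gates, and Pcdh17 is brightest in the Otx2 or Crx gate at 250.4 CPM.

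The partners of the members were read from lists of 11 catenins and linkers, 9 giant cadherins (Fat, Dchs and Celsr), 3 calsyntenins and 3 genes of cadherin cleavage. Over all kept cells 1 of 10 catenins and linkers that passed the filter was 2-fold higher and 1 lower in Tomato+, where 3% of all genes tested were higher and 6.72% lower. Ctnna2, the neuronal alpha-catenin, stood at 241.3 CPM in Tomato+ cells, against 110 CPM in Tomato- cells (log2 ratio 1.07), and Ctnna1, the epithelial alpha-catenin, at 71.7 and 166.5 CPM (log2 ratio -1.11). Their title numbers ran from 192.6 to 312.4 CPM in Tomato+ and 55.9 to 199.1 CPM in Tomato- for Ctnna2, and from 43.1 to 111.9 CPM in Tomato+ and 91.1 to 226.2 CPM in Tomato- for Ctnna1, so the ranges overlapped slightly. Ctnnb1 (beta-catenin) was level, at 53.6 and 54.2 CPM in Tomato+ and Tomato-. Adam10, a protease that sheds cadherin outer domains, stood at 410 CPM in Tomato+ cells, against 184.3 CPM in Tomato- cells (log2 ratio 1.11), with title numbers from 322.96 to 599.9 CPM in Tomato+ and from 105.8 to 257.5 CPM in Tomato-, which did not overlap. Fat1 stood at 5.85 CPM in Tomato+ cells, against 39.97 CPM in Tomato- cells (log2 ratio -1.66), 1 of 6 giant cadherins that passed, and the calsyntenin Clstn2 at 47.7 and 12.3 CPM (log2 ratio 1.37).

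Partner genes that passed within Pou4f-positive cells were 10 catenins and linkers, 6 giant cadherins, 3 calsyntenins and 3 cleavage genes. None reached 2-fold between Tomato+ and Tomato- on the scale log2(CPM + 10), where 1.05% of all genes tested were higher and 2.65% lower. In plain CPM some were past 2-fold. Clstn2 stood at 43.8 CPM in Tomato+, against 18.9 CPM in Tomato-. Pkp4 stood at 30.9 and 64.1 CPM, Fat1 at 5.21 and 15.1 CPM, and Clstn3 at 5.42 and 20.5 CPM. In the narrower comparison of Eomes-absent cells, 1 of 6 giant cadherins was higher and 1 lower: Fat4 stood at 104.004 CPM in Tomato+ cells, against 44.1 CPM in Tomato- cells (log2 ratio 1.08), and Fat1 at 3.68 CPM in Tomato+ cells, against 18.1 CPM in Tomato- cells (log2 ratio -1.04). Over all genes 1.94% were higher and 4% lower there. In the Eomes split 1 of 5 giant cadherins was lower and 1 of 3 calsyntenins higher, where 0.9% of all genes tested were lower and 1.41% higher. Fat4 stood at 45.96 CPM in Eomes-positive and 104.004 CPM in Eomes-absent cells (log2 ratio -1.03), the lower side in 7 of 10 title numbers. Clstn2 stood at 82.9 CPM in Eomes-positive and 25.8 CPM in Eomes-absent cells (log2 ratio 1.38), the higher side in 7 of 10 title numbers. None of the 10 catenins and linkers that passed reached 2-fold on that scale in the split.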

How the data were processed

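The table holds unnormalised whole-number counts per gene and cell as deposited by the authors, 49585 rows and 801 columns; 1 column belonged to none of the labelled cells and was left aside. Per the submitters' processing notes, Seurat 2.3, R 3.4.4 and the genome mm10 were used; the aligner and counter are not given in the sources used here. The labels name SmartSeq2 while the column headers end in "umi", and whether a count is a read or a molecule is not stated. Rows whose symbol occurs more than once stayed in the totals. The members, lists and comparisons were chosen with earlier results of these data known.

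A cell was kept with 1000 genes or more and no more than 20% of its counts in genes starting mt-; 73 Tomato+ and 38 Tomato- cells were left out, and no doublet caller was run. Counts were summed per group and divided by the group total (CPM). Log2 ratios have the first-named group on top and a pseudocount of 10 CPM, and 2-fold means an absolute log2 ratio of at least 1. Full values are given for members past 2-fold and for the 3 most abundant of each class. Each group is 1 pool, so no p-value was computed. Intervals are at 95%. Exon lengths and gene positions are from GENCODE vM21 (GRCm38). The ratio step was tested on simulated data. Alternatives used the TMM scaling of edgeR 4.0.16 and the median-of-ratios scaling of DESeq2 1.42.0, run in R 4.3.3; other steps ran in Python 3.11.15 with numpy 2.4.6, pandas 2.3.3 and scipy 1.17.1.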

Additional observations from a re-analysis of the deposited data

Results flagged for a closer look

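Values of 14 named members over title numbers were examined for a single title number far from its own group, in 50 groups of title numbers with a median of at least 10 CPM. The lone highest value stood apart in 10 of them by Dixon's ratio of the gap to the range, used as a screen. Its limits assume normal values, while a few cells can set a title number's CPM. Many of these groups also share cells, so no rate of flags by chance is given.

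Cdh4 stood at 173.7 CPM in all kept cells of Tomato+ title number 8, where the next number had 100.9 CPM, at 210.6 CPM in its Pou4f-positive cells (next 104.4 CPM) and at 375.5 CPM in its Eomes-absent cells (next 148.6 CPM). These values overlap in their cells. Pcdh19 stood at 175.6 CPM in Eomes-absent cells of title number 10 (next 53.8 CPM), and at 196.9 CPM in Pou4f-positive Tomato- cells of title number 17 (next 97.8 CPM).

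Pcdh10 stood at 115.97 CPM in Eomes-absent cells of title number 9 (next 28.6 CPM), and Pcdh15 at 158.97 CPM in Eomes-positive cells of title number 2 (next 59.2 CPM). Cdh18 stood at 53.6 CPM in all kept Tomato+ cells and 54.3 CPM in Pou4f-positive Tomato+ cells of title number 6 (next 21.9 and 23.1 CPM), and at 114.7 CPM in Eomes-positive cells of title number 8 (next 60.03 CPM).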

How the results depend on the processing

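Over 42 log2 ratios of named members and 1288 alternatives, 1268 moved by less than the SD over title numbers, 20 moved by more and 0 of the 9 ratios past 2-fold changed sign. Settings of the detection filter cannot move a ratio. Most other alternatives leave out 1 title number, which can hardly move a ratio by the SD over title numbers. The count of 1268 is therefore no measure of how firm the ratios are. Counts of members past 2-fold depend on the settings, since many lie near it. Over all kept cells, 3 higher and 1 lower became 5 and 3 with a pseudocount of 1 CPM and 0 and 0 with 50 CPM; the lower count became 2 without title numbers 8 and 10 or with no detection filter, and 0 with 5 counts required in 10% of cells. Leaving out 1 title number gave 2 to 4 higher and 1 to 2 lower. In Pou4f-positive cells, 1 higher (Cdh6) became 0 with a pseudocount of 50 CPM, cells weighted equally, no mitochondrial limit, a Pou4f gate at 1 count, 5 counts in 10% of cells, or Eomes-absent cells only; 0 lower became 1 with the gate at 1 count or with no filter. With no filter that lower member was Cdh8. Leaving out 1 title number gave 0 to 1 higher and 0 to 0 lower. In the Eomes split, 2 higher and 2 lower became 0 and 0 with a pseudocount of 50 CPM, 1 and 1 with the Pou4f gate at 20 counts, 0 and 1 with Eomes-positive at 1 count, and 1 higher with 5 counts in 10% of cells. Leaving out 1 title number gave 1 to 3 higher and 1 to 2 lower. The cause of these moves was not tested beyond what the settings do: a larger pseudocount shrinks the ratios of low genes. TMM and median-of-ratios scaling moved all ratios over all kept cells up by at most 0.12 and 0.14 on the log2 scale. The narrowing to Eomes-absent cells was added after the data were seen, as were the split without the Pou4f gate and the gate without other marker genes. No paired analysis was possible because each group is 1 pool and no value comes from a test; the row part of the titles is shared by Tomato+ and Tomato- cells and was not used as a block, and both sides of the Eomes split share their title numbers, whose directions are counted in the text. The number of cells, 12 Eomes-positive Tomato- cells for example, limits what can be told apart.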
